A study of Mus musculus with 24 samples.

Results

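The response of conventional CD4+ T cells to activation was compared between mtDNA haplotypes: for each gene, the change from rest to activation in mtDNA-NZB cells minus the same change in mtDNA-B6 cells, on the log2 scale. This difference of responses is an interaction, and a positive value means that the gene rose more, or fell less, on activation in mtDNA-NZB cells. It was taken over 21 of the 24 libraries of the series, those that the study used. Both strains carry the C57BL/6J (B6) nuclear genome, with the mtDNA of B6 in one (WT in the labels) and of the NZB strain in the other, so that the groups were meant to differ in mtDNA and in activation alone. Splenic CD4+ CD25- cells (TE in the labels) were isolated on magnetic columns. They were kept resting or were activated for several days with beads that carry antibodies to CD3 and CD28. CD3 is the signalling part of the T cell receptor, and CD28 is a costimulatory receptor. According to the study's methods, IL-2 was added with the beads. There were 6 resting and 6 activated mtDNA-B6 libraries, 4 resting and 5 activated mtDNA-NZB libraries. The 3 libraries left out were replicates 2 and 6 of the resting and replicate 6 of the activated mtDNA-NZB group. The mice of most of the study's experiments were young adult males, and the labels give no age or sex for single libraries.

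A resting T cell is small, quiescent and outside the cell cycle. Engagement of its receptors makes it grow, expand its mitochondria, make nucleotides and protein, and enter replication and mitosis, while genes that hold quiescence and homing, such as *S1pr1*, *Bach2* and the *Gimap* family, tend to fall. Because a response is a difference between 2 levels, a larger response can come from a lower resting level, from a higher activated level, or from both, and each level was compared between haplotypes for this reason.

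RNA was read at its 3′ end by bulk MARS-seq, in which every molecule carries its own short barcode (UMI), and levels are given as CPM, the UMI count of a gene scaled to the total of its library. The total UMI count ran from 641467 (activated mtDNA-NZB replicate 1) to 5456681 per library. *Cd3e* lay between 222 and 375 CPM and *Cd4* between 481 and 771 CPM in every library, and *Il2ra*, which encodes the IL-2 receptor alpha chain and is induced on activation, rose from at most 5.67 CPM in resting to at least 41.7 CPM in activated libraries. The NK cell marker *Ncr1* reached at most 1.11 CPM. All NK cell markers together summed to 482 to 668 CPM in resting mtDNA-B6 and 438 to 863 CPM in resting mtDNA-NZB libraries. After activation their sums were 477 to 1620 CPM and 181 to 833 CPM. The median response difference of the 7 tested was -0.94, with 0 positive and none called. RNA of other blood cells was present, above all at rest for erythroid, granulocyte, monocyte and B cell markers. CD8 T cell, platelet and mast cell markers had higher medians after activation in mtDNA-B6 libraries. For CD8 T cell markers the medians were 543 CPM at rest and 844 CPM after activation, and 467 and 448 CPM in mtDNA-NZB libraries. The summed level of the erythroid markers was 1180 to 8700 CPM in resting mtDNA-B6 libraries and 567 to 694 CPM in resting mtDNA-NZB libraries, with no overlap, against 184 to 563 CPM in all activated libraries. In bulk RNA, fewer cells of a type and less RNA per cell cannot be told apart. The ratio of reads to UMIs divided the libraries into 3 sets, which were spread unevenly: 5 of the 6 activated mtDNA-B6 libraries and 0 of the resting ones fell in set 1, that of the lowest ratios, and 4 of the 6 resting ones in set 2, whereas the mtDNA-NZB groups were spread over all 3 sets.

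The response to activation differed between haplotypes in 113 of the 10826 genes tested (1.04%) at an adjusted p of at most 0.05 (edgeR's quasi-likelihood test, Benjamini-Hochberg adjustment). Most of these rose more in mtDNA-NZB cells: 95 genes (0.878% of those tested) had the larger response in mtDNA-NZB and 18 genes (0.166%) the smaller. The size of the difference ran from 0.55 to 3.90 on the log2 scale, and 111 of the 113 were protein-coding genes. Their adjusted p-values all lay between 0.0422 and 0.0498, just inside the threshold. The last gene inside was *Tkt* (transketolase, a log2 difference of 0.77, adjusted p 0.0498) and the first outside was *Siva1* (0.77, adjusted p 0.0502). The count therefore moved with small changes of the data, as described at the end.

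Activation moved these genes in the same direction in both haplotypes in 90 of the 113. Of the 95 genes with the larger mtDNA-NZB response, 76 rose in both haplotypes and 54 of these passed the test in each. Another 13 fell in mtDNA-B6 cells and rose in mtDNA-NZB cells, and 6 fell in both. Of the 18 genes with the smaller response, 10 rose in mtDNA-B6 cells and fell in mtDNA-NZB cells, and 7 fell in both. For scale, activation raised 23.8% and lowered 26.6% of all genes tested with mtDNA-B6, and raised 24.5% and lowered 28.7% with mtDNA-NZB.

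The resting level differed more than the activated level. Over the 113 genes the median difference between haplotypes (mtDNA-NZB minus mtDNA-B6) was -1.05 at rest and 0.29 after activation for the 95 genes with the larger response, and 0.54 at rest and -0.39 after activation for the 18 with the smaller response. The medians over all genes tested were 0.01 at both levels. At rest 91 of the 113 genes passed the test between haplotypes, where 3.88% of all genes were called lower and 2.24% higher in mtDNA-NZB cells. After activation none passed by edgeR, as for all genes (0%), while 41 of the 113 had an unadjusted p under 0.05, and 1068 of all genes did. DESeq2 called 7 genes after activation. Resting libraries of the haplotypes did not overlap for 52 of the 113 genes, against 5.35% of all genes, and activated libraries did not overlap for 9, against 0.674%. Both differences are terms of the response difference by which the 113 genes were chosen on the same libraries. Their excess over all genes is therefore largely fixed by that choice and is no separate support.

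The share of each response difference that came from the resting level (the resting difference, with its sign turned, divided by the response difference) had a median of 0.75 over the 113 genes and ran from 0.26 to 1.09. It was over 0.667 in 75 genes (66.4%), between 0.333 and 0.667 in 34, and under 0.333 in 4, which were *Atic*, *Ampd3*, *Itpripl1* and the pseudogene *Gm6136*. Among the genes called without activated mtDNA-NZB replicate 4 (380 genes) it was over 0.667 in 37.9%, and in the single gene called without activated mtDNA-NZB replicate 1. The genes with the larger response were mostly carried by the resting level (70 of 95), whereas of the 18 with the smaller response 13 were shared between the levels and 5 were carried by the resting level. Where the haplotype differences at rest and after activation had opposite signs, as in 109 of the 113 genes, their average tests whether their sizes are unequal. It had an unadjusted p under 0.05 in 56 of the 113 genes, in all 56 with the larger difference at rest, and these include the 4 genes with the same sign at both levels, for which it is no such test. With adjustment 2 passed (0.0462% of all genes), *Slc43a3* and *Cpox*, both of the 4. The other 57 genes had an unadjusted p of at least 0.05. The median standard error was 0.20 for the resting and 0.18 for the activated difference over the 113 genes, with 4 resting mtDNA-NZB libraries behind the former. Among all genes tested the share was over 0.667 in 47.2%.

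**Figure D1:**
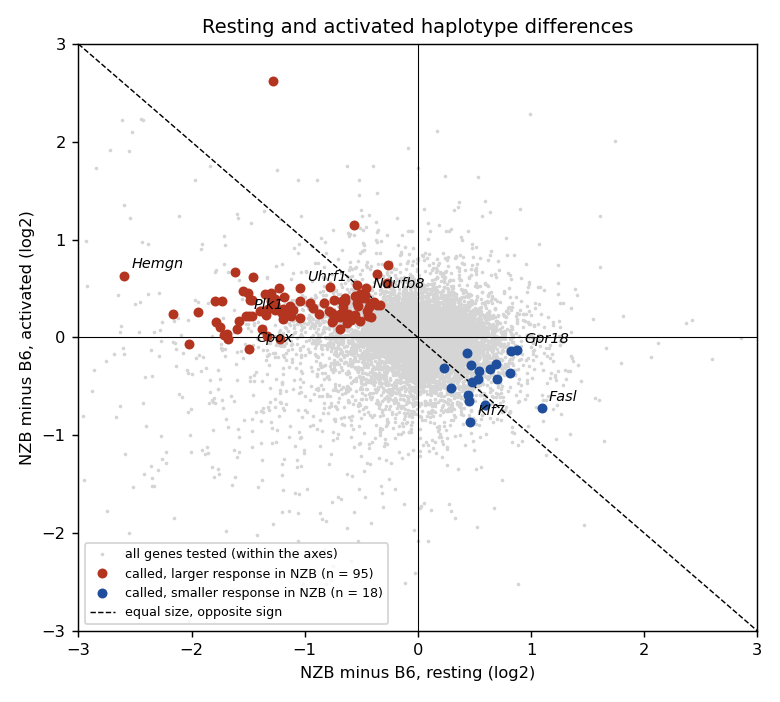
Log2 difference between haplotypes (mtDNA-NZB minus mtDNA-B6) in resting cells on the x axis and in activated cells on the y axis, for all genes tested within the axes (grey), the 95 called genes with the larger response in mtDNA-NZB (red) and the 18 with the smaller response (blue); the dashed line marks equal sizes of opposite sign. Most red points lie far left of 0 and slightly above it, so that the resting difference is the larger, and the blue points lie near the dashed line.

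Genes of replication and cell division formed the largest group among the 95. Of 63 genes tested of mitosis and chromosome segregation, 13 were called with the larger mtDNA-NZB response (20.6%, against 0.878% of all genes) and 0 with the smaller. The list's median response difference was 1.21 against -0.01 for all genes. Of 56 genes of the DNA replication machinery 8 were called (14.3%), all with the larger response, with a median of 0.83. At rest 31 of the 63 (49.2%) and 18 of the 56 (32.1%) were called lower in mtDNA-NZB cells and none higher, against 3.88% and 2.24% of all genes. The 21 called genes of these lists rose in both haplotypes, and 20 of them were called at rest and 2 had an unadjusted p under 0.05 after activation. These 21 genes rose more in mtDNA-NZB cells, and none passed the test between haplotypes after activation.

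*Plk1*, the polo-like kinase of mitotic entry and spindle assembly, showed this order. At rest it lay at 27.9, 35.5, 50.7, 55.1, 71.0 and 80.1 CPM in mtDNA-B6 libraries and at 6.38, 18.6, 19.7 and 29.0 CPM in mtDNA-NZB libraries. After activation it lay at 170 to 312 CPM (median 233) in mtDNA-B6 and at 206, 232, 256, 323 and 360 CPM in mtDNA-NZB libraries. The resting groups overlapped by 1 library on each side and the activated groups overlapped widely. The response was 2.13 in mtDNA-B6 and 3.87 in mtDNA-NZB cells, a difference of 1.74 ± 0.40 (SE, adjusted p 0.0447), of which the resting level gave 0.87.

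*Cdk1*, the kinase that drives entry into mitosis, lay at 34.1 to 103 CPM in resting mtDNA-B6 libraries (median 58.4) and at 19.1, 20.2, 22.8 and 34.0 CPM in resting mtDNA-NZB libraries. These groups did not overlap, by a narrow margin. Its response difference was 1.63 ± 0.33 (SE, adjusted p 0.0422). *Cenph*, a kinetochore protein, had the smallest p of the mitosis list, with a difference of 1.87 ± 0.38 (adjusted p 0.0422), and *Rpa3*, a subunit of the single-strand DNA binding complex, that of the replication list, with 1.23 ± 0.23 (adjusted p 0.0422). *Rpa3* lay at 25.3 to 38.7 CPM in resting mtDNA-B6 and at 11.8 to 18.3 CPM in resting mtDNA-NZB libraries. *Rrm2*, the small subunit of ribonucleotide reductase, differed by 1.79, *Cdc6* and *Mcm10*, which load and fire replication origins, by 1.72 and 1.71, and *Lig1*, the ligase that joins Okazaki fragments, by 1.24.

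*Uhrf1*, which guides the maintenance methyltransferase to newly replicated DNA, was the single called gene among 25 tested of DNA methylation and its maintenance. That is 4% of the list, against 0.878% of all genes. At rest *Uhrf1* lay at 19.4 to 56.6 CPM (median 31.4) in mtDNA-B6 and at 12.3, 17.3, 19.2 and 19.4 CPM in mtDNA-NZB libraries, and after activation at 101 to 163 CPM (median 118) and at 125, 145, 193, 202 and 224 CPM. mtDNA-NZB libraries were thus at the low end at rest and at the high end after activation, with overlap at both levels. Its response difference of 1.55 ± 0.34 (adjusted p 0.0439) was made up of -1.05 at rest and 0.50 after activation, a resting share of 0.68. The methylation list had a median of 0.24. The G1 regulators had 2 called genes of 28, *E2f8*, a repressor among the E2F factors (2.16), and *Cdk4*, the kinase of G1 progression (0.85). The replication histones had 1 of 44, *H2ac23* (2.08), whose last 1000 bases overlap predicted genes. *H2ac23* rose in both haplotypes, whereas the histone list had median responses of -1.16 in mtDNA-B6 and -0.42 in mtDNA-NZB cells. Of the 44, 25 were called as falling in mtDNA-B6 and 18 in mtDNA-NZB cells. For *Cdk4* the levels shared the difference, with -0.53 at rest and 0.32 after activation.

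The promoters of the called replication and mitosis genes were read from RefSeq (build GRCm38.p6, 250 bases before to 50 after the start, the first listed promoter of each gene, found for 19 of the 21), because a short element named CHR and CCAAT boxes are known in promoters of late cell cycle genes. TTTGAA, the CHR letters, on either strand, was held by 8 of the 19 (42.1%), by 24 of 80 promoters of the genes with the larger response (30.0%), by 4 of 15 of those with the smaller response (26.7%) and by 12.3% of 8162 promoters of genes tested. CCAAT on either strand was held by 14 of the 19 (73.7%) and by 39.5% of the 8162. The E2F letters TTTCCCGC or TTTGGCGC were held by 2 of the 19 (10.5%) and by 3.36%. None of the strings searched is part of another. These are matches of letters and no measure of binding. The CHR match and its surroundings in genes described here, with the match in capitals on the gene's strand, read 5′ to 3′ as follows.
Plk1, chr7:122159453-122159482, plus strand: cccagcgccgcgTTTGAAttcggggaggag
Cdk1, chr10:69352910-69352939, minus strand: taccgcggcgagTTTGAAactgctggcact
Ccnb2, chr9:70421533-70421562, minus strand: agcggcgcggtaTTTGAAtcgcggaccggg
Cdc20, chr4:118437344-118437373, minus strand: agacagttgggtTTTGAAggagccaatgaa
Cdca3, chr6:124830194-124830223, plus strand: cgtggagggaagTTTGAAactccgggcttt
*Ccnb2*, the B-type cyclin, *Cdc20*, the activator of the anaphase-promoting complex, and *Cdca3*, which promotes mitotic entry, had response differences of 1.62, 1.48 and 1.46.

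**Figure D2:**
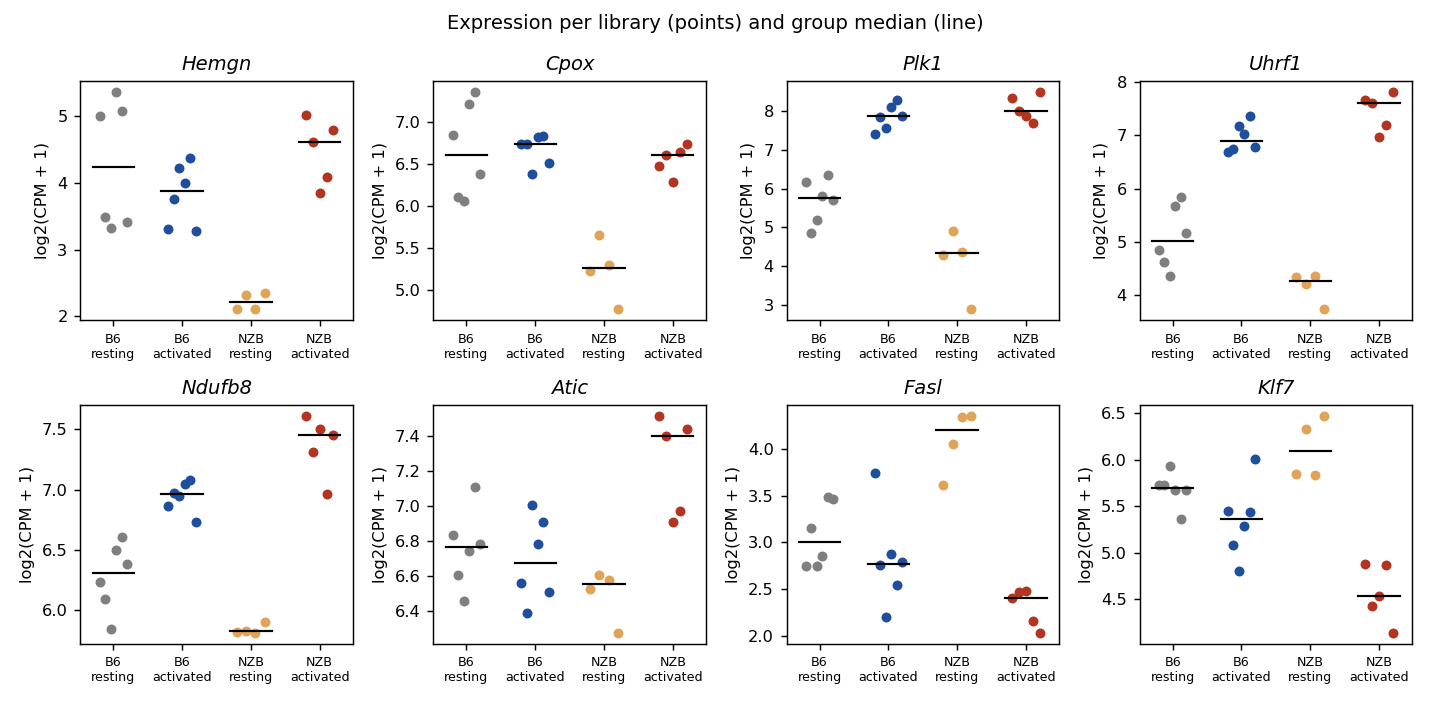
Level of 8 genes in each library as log2(CPM + 1), by group, with the line at the group median: mtDNA-B6 resting (grey) and activated (blue), mtDNA-NZB resting (orange) and activated (red). *Hemgn*, *Cpox*, *Plk1* and *Uhrf1* are low in the 4 resting mtDNA-NZB libraries, *Atic* stands high in activated mtDNA-NZB libraries, and *Fasl* and *Klf7* are high in resting and low in activated mtDNA-NZB libraries.

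Genes of heme and iron-sulfur synthesis formed a further group. Of 34 genes tested of iron uptake, storage and iron-sulfur assembly, 7 were called, all with the larger mtDNA-NZB response (20.6%, against 0.878% of all genes). The median response difference was 0.44, with medians of -0.31 at rest and 0.05 after activation. At rest 13 of the 34 were called lower in mtDNA-NZB cells (38.2%, against 3.88% of all genes) and none higher. Among the 7 were *Cpox*, *Urod* and *Ppox*, enzymes of the heme pathway, and *Glrx5* and *Bola3*, which serve iron-sulfur cluster assembly. *Cpox* lay at 65.7, 68.0, 82.5, 114, 148 and 163 CPM in resting mtDNA-B6 and at 26.4, 36.5, 38.6 and 49.7 CPM in resting mtDNA-NZB libraries, which did not overlap, and at 82.3 to 114 and 77.4 to 105.6 CPM after activation. Its response difference was 1.38 ± 0.30 (adjusted p 0.0439) with a resting share of 1.09. The genes *Gm60674* and *Gpr15* overlap its last 1000 bases.

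*Urod* differed by 0.79 with a resting share of 0.78, and its resting groups did not overlap, at 49.6 to 85.2 CPM in mtDNA-B6 and 42.0 to 43.9 CPM in mtDNA-NZB libraries. For *Ppox* the levels contributed alike, with -0.33 at rest and 0.33 after activation, a response difference of 0.66 ± 0.16 (adjusted p 0.0483). *Ppox* lay at 38.7 to 46.2 CPM in resting mtDNA-B6 and at 28.0 to 37.2 CPM in resting mtDNA-NZB libraries, and at 16.9 to 21.6 and 20.9 to 25.7 CPM after activation. The resting groups did not overlap and the activated groups did. *B4galt3* overlaps the last 1000 bases of *Ppox*, and *Zswim5* those of *Urod*.

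*Hemgn*, which encodes hemogen, a nuclear protein of erythroid cells, had the largest response difference among named genes, 3.23 ± 0.58 (adjusted p 0.0422). At rest it lay at 9.04, 9.70, 10.2, 30.9, 32.5 and 40.0 CPM in mtDNA-B6 and at 3.31, 3.33, 4.00 and 4.10 CPM in mtDNA-NZB libraries, and after activation at 8.66 to 19.6 CPM and at 13.3 to 31.3 CPM. The resting groups did not overlap, and mtDNA-B6 fell into 3 low and 3 high libraries. *Gata1*, the master factor of erythroid cells, differed by 2.20 ± 0.49 (adjusted p 0.0439), with 7.55 to 35.3 CPM against 2.28 to 7.50 CPM at rest. Both genes were still read after activation (medians of 23.4 and 12.6 CPM in mtDNA-NZB). Their responses were 2.53 and 1.13 in mtDNA-NZB cells, and -0.69 and -1.07 in mtDNA-B6 cells. Most erythroid markers fell instead: of 24 tested, 16 were called as falling and 2 as rising with mtDNA-NZB, and 22 and 0 with mtDNA-B6. The hemoglobin gene *Hbb-bs* lay at 79.5 to 4040 CPM in resting mtDNA-B6 libraries, at 42.2 to 180 CPM in resting mtDNA-NZB libraries and at most at 92.8 CPM in activated libraries.

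Many markers of erythroid cells, granulocyte precursors and neutrophils were also called lower in resting mtDNA-NZB cells. Only 1 of 16 monocyte and macrophage markers and 0 of 9 dendritic cell markers were. Of 24 erythroid markers tested, 21 were called lower in resting mtDNA-NZB than in resting mtDNA-B6 cells (87.5%, against 3.88% of all genes). Only 2 of the 24, *Hemgn* and *Gata1*, had a called response difference (8.33%, against 1.04% of all genes). Defining markers of erythroid cells were measured in every resting library: *Klf1* at 20 to 105 CPM in mtDNA-B6 and 6.38 to 12.3 CPM in mtDNA-NZB, and *Alas2* at 4.10 to 129 and 1.82 to 5.63 CPM. Of 10 granulocyte precursor markers 9 were called lower at rest, with sums of 292 to 2680 CPM against 226 to 397 CPM, and of 17 neutrophil markers 7, with sums of 1450 to 9800 CPM against 861 to 1890 CPM. B cell markers summed to 15000 to 27800 CPM and 14900 to 30100 CPM at rest and none of 21 was called. After activation they summed to 6970 to 14900 CPM (median 9030) in mtDNA-B6 and 2310 to 13800 CPM (median 4760) in mtDNA-NZB libraries. The median response difference of the 21 was -1.01, with 2 positive and none called. The part of B cell RNA in the smaller responses was not tested. The 3 resting mtDNA-B6 libraries highest in *Hemgn* and *Cpox* (replicates 1, 4 and 5) were also the 3 highest in erythroid marker sum. With any of these 3 left out the number of called response differences was 0, as it was without any of 8 libraries of the other groups. Without resting mtDNA-B6 replicates 2 and 6, the lowest in erythroid sum at 1180 and 1270 CPM, it was 376 and 104. Erythroid and granulocyte precursors are dividing cells, and the part of their RNA in the cell cycle and heme differences was not tested.

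**Figure D3:**
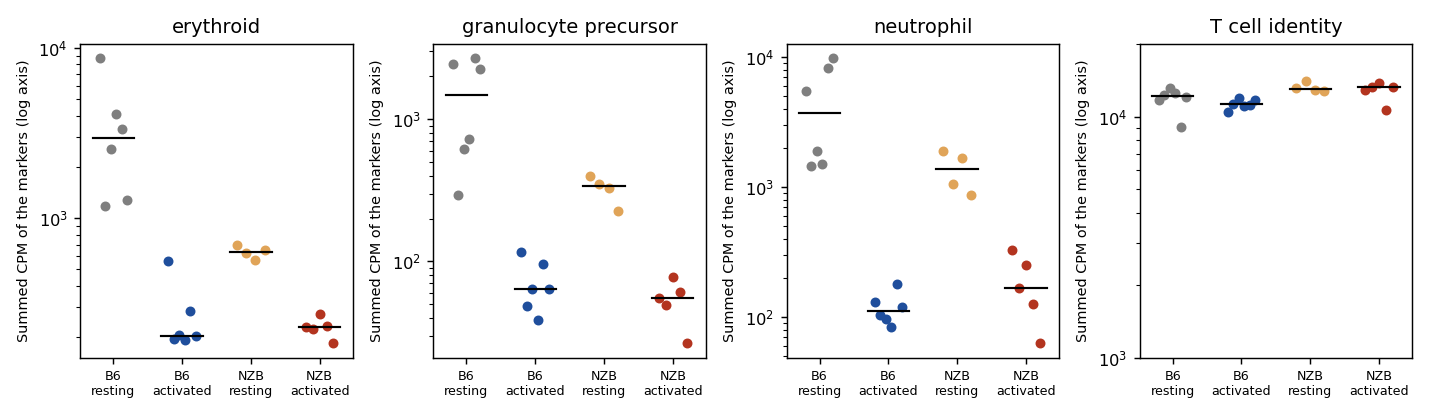
Summed CPM of the marker genes of erythroid cells, granulocyte precursors, neutrophils and T cell identity in each library, by group, on a log axis, with the line at the group median. The 4 resting mtDNA-NZB libraries lie below all 6 resting mtDNA-B6 libraries for erythroid markers, and T cell identity markers lie between 9090 and 14100 CPM throughout.

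Genes of the mitochondrial ribosome and respiratory chain had 6 calls, with response differences of 0.62 to 2.11 and a median resting share of 0.64. Of 75 mitochondrial ribosomal proteins 2 were called (2.67%), and of 51 complex I subunits and assembly factors 3 (5.88%). Of 60 nuclear-encoded genes of complexes II to V 1 was called (1.67%). All had the larger mtDNA-NZB response, as did 0.878% of all genes, and calls of 1 to 3 genes are too few to read against that share. The medians of these lists were 0.37, 0.36 and 0.30. An unadjusted p under 0.05 with the larger response was seen in 35, 25 and 19 of the genes of these lists, where 1124 of the 10826 genes tested had it. *Ndufb8*, a complex I subunit, lay at 56.3 to 96.1 CPM (median 78.0) in resting mtDNA-B6 and at 55.0, 55.4, 55.7 and 58.8 CPM in resting mtDNA-NZB libraries, and at 105 to 134 CPM (median 124) and 123, 158, 174, 181 and 195 CPM after activation. Its difference of 0.90 ± 0.19 (adjusted p 0.0422) had a resting share of 0.52, so that the mtDNA-NZB level was low at rest and high after activation. The gene *Gm20538* overlaps its last 1000 bases, and the strand of counting is not stated.

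*Ndufab1* and *Ndufs6* differed by 0.72 and 0.62, *Mrpl51* and *Mrpl57* by 1.04 and 0.74. *Cox6b2*, a cytochrome c oxidase subunit known from testis, differed by 2.11 from low levels and fell on activation in both haplotypes. Of the transcripts of the mtDNA itself 7 could be tested, too few to read the absence of a call against 1.04% of all genes. Their median was -0.13, a sign that turned under some of the alternatives, and 1 of the 7 was called lower at rest. The mtDNAs differ in sequence, and the effect of this on mapping was not tested. *mt-Nd1* had the largest difference of the 7, 1.34 ± 0.55 (adjusted p 0.188). After activation it lay at 22.8 CPM in mtDNA-NZB replicate 1, the smallest library. The other activated mtDNA-NZB libraries had 3.25 to 5.52 CPM, against 2.95 to 5.51 CPM in activated mtDNA-B6 libraries. The factors that replicate and transcribe mtDNA had a median of 0.03 and no call among 28.

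Of 47 proteasome genes 2 were called (4.26%, against 0.878% of all genes). These were *Psmd13* (0.75, shared by -0.39 at rest and 0.37 after activation) and the assembly chaperone *Psmg3* (1.05). Of 44 genes of the peroxide, thioredoxin and glutaredoxin systems 3 were called: *Prdx2* (0.92), *Gpx1* (0.84) and *Glrx5* (0.77), with resting shares of 0.81, 0.76 and 0.77. *Gpx1*, a peroxidase of hydrogen peroxide, lay at 704 to 1208 CPM in resting mtDNA-B6 and at 518 to 685 CPM in resting mtDNA-NZB libraries without overlap, and after activation at 475 to 573 and 488 to 749 CPM. Its response was -0.88 with mtDNA-B6 and -0.05 with mtDNA-NZB, of which the latter did not pass the test. *Prdx2* and *Gpx1* are also abundant in erythroid cells. *Junb* overlaps the last 1000 bases of *Prdx2*, and *Gm57050* those of *Gpx1*.

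*Atic*, which completes purine synthesis, had most of its difference in activated cells. It lay at 87.1 to 137 CPM and 76.5 to 96.3 CPM at rest, and at 82.9 to 128 CPM in activated mtDNA-B6 against 119, 125, 168, 172 and 182 CPM in activated mtDNA-NZB libraries. The difference was 0.83 ± 0.20 (adjusted p 0.0488), made up of -0.27 at rest and 0.55 after activation. The activated groups overlapped by 2 mtDNA-NZB libraries. *Dtymk*, a kinase that makes thymidine diphosphate, was the other called gene among 35 of nucleotide synthesis (0.86). In glycolysis *Tkt*, of the pentose phosphate pathway, was the single call of 40 genes (2.5%, against 0.878% of all genes). The median of that list was 0.02.

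Of the 95 genes 50 were in none of the function lists. Those with known roles include *Rad54l*, *Dna2*, *Recql4*, *Bard1* and *Chek2* in DNA repair, and *Knl1*, *Oip5*, *Cenps*, *Ska1*, *Spag5*, *Nek2*, *Melk* and *Aspm* in kinetochores and spindles. *Tsfm*, *Uqcc6*, *Cmc2*, *Cisd1*, *Tamm41* and *Pycr3* encode mitochondrial proteins, and *Dctpp1* and *Dnph1* hydrolyse nucleotides. These names, apart from *Rad54l* and *Dnph1*, were chosen after their values were seen. Response differences of the 50 ran from 0.68 to 3.90, and 42 were called lower at rest. *C1qtnf12* had one of the largest, 2.40 ± 0.46 (adjusted p 0.0422), with 36.8 to 174 CPM in resting mtDNA-B6 and 15.9 to 25.7 CPM in resting mtDNA-NZB libraries, and *Slc43a3*, a purine base transporter, differed by 1.95 with 6.89 to 22.3 against 2.28 to 4.67 CPM at rest. Neither pair of resting groups overlapped.

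The 18 genes with the smaller mtDNA-NZB response included regulators of quiescence, homing and receptor signalling. *Fasl*, the death ligand by which T cells kill and limit each other, had the largest difference among them. It lay at 5.69, 5.70, 6.21, 7.88, 10.1 and 10.2 CPM in resting mtDNA-B6 and at 11.3, 15.7, 19.4 and 19.6 CPM in resting mtDNA-NZB libraries, and after activation at 3.61 to 12.4 CPM and at 3.08 to 4.55 CPM. The resting groups did not overlap, and the highest activated mtDNA-B6 library, replicate 1, stood apart at 12.4 CPM. That library was also the highest in NK cell marker sum (1620 CPM), and the part of NK cell RNA was not tested. The response was -0.23 in mtDNA-B6 and -2.05 in mtDNA-NZB cells, a difference of -1.82 ± 0.40 (adjusted p 0.0439), made up of 1.10 at rest and -0.72 after activation. Between 3 and 70 UMIs of *Fasl* were counted per library, so that its values carry a large counting error.

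Of 51 lineage and quiescence transcription factors 3 were called, all with the smaller response (5.88%, against 0.166% of all genes). Of the 51, 41 had a negative difference or 0 (10 had a positive one), with a median of -0.33. The 3 called were *Klf7* (-1.33 ± 0.27, adjusted p 0.0422), *Bach2*, a repressor of effector programmes (-0.96), and *Per1*, a clock repressor (-0.96). *Klf7* lay at 40.2 to 60.0 CPM in resting mtDNA-B6 and at 56.1, 56.7, 79.7 and 87.9 CPM in resting mtDNA-NZB libraries, and at 26.9 to 63.4 CPM and 16.6, 20.5, 22.1, 28.1 and 28.5 CPM after activation. Its activated difference of -0.86 was the larger, and the groups overlapped slightly at both levels. *S1pr1*, the receptor by which T cells leave lymphoid tissue, was carried by the resting level (share 0.86), with 186 to 323 CPM against 302 to 540 CPM at rest and 101 to 166 against 92.4 to 152 CPM after activation, a difference of -0.96 ± 0.24 (adjusted p 0.0488). Its groups overlapped at both levels, at rest by 1 library on each side.

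*Kmt2c*, a histone H3 lysine methyltransferase, was the single call among 43 KMT2 and Polycomb genes (-1.11 ± 0.24, adjusted p 0.0428). That is 2.33% of the list, against 0.166% of all genes called with the smaller response. *Kmt2c* was higher in resting mtDNA-NZB libraries (45.7 to 66.5 against 32.8 to 43.3 CPM, without overlap) and lower in most activated ones (11.4 to 24.4 against 21.5 to 36.1 CPM). *Neat1*, a nuclear long noncoding RNA, differed by -1.28, with 59.6 to 89.9 and 87.2 to 141 CPM at rest and 74.0 to 101 and 32.3 to 82.7 CPM after activation. *Ptprc*, which encodes CD45, the phosphatase that licenses T cell receptor signalling, differed by -0.55 ± 0.13 (adjusted p 0.0463), with the activated groups apart at 767 to 974 CPM in mtDNA-B6 and 646 to 739 CPM in mtDNA-NZB libraries. It was the single call among 45 genes of the T cell receptor and proximal signalling, of which 15 had an unadjusted p under 0.05 with the smaller response (8.29% of all genes tested) and 1 with the larger (10.4%).

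*Gimap6*, a GTPase of lymphocyte survival, differed by -0.93, *Sesn3*, an inhibitor of mTORC1 signalling, by -0.89, *Slc7a6*, an amino acid transporter, by -1.18, *Tpm4*, a tropomyosin, by -0.96, *Nck1*, an adaptor between receptors and actin, by -1.03, *Plekha2*, a lipid-binding adaptor, by -1.13, and *Gpr18*, a receptor of lymphocytes, by -1.01. *Tpm4* was the single gene of the 18 whose groups were apart at both levels, and its resting margin was narrow, at 51.3 to 67.3 CPM against 67.6 to 138 CPM. *Gpr18* lay at 71.0 to 93.2 CPM in resting mtDNA-B6 and at 129 to 168 CPM in resting mtDNA-NZB libraries, and its activated groups overlapped. *Bahd1*, *Rnf44* and *Kidins220* complete the 18.

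**Figure D4:**
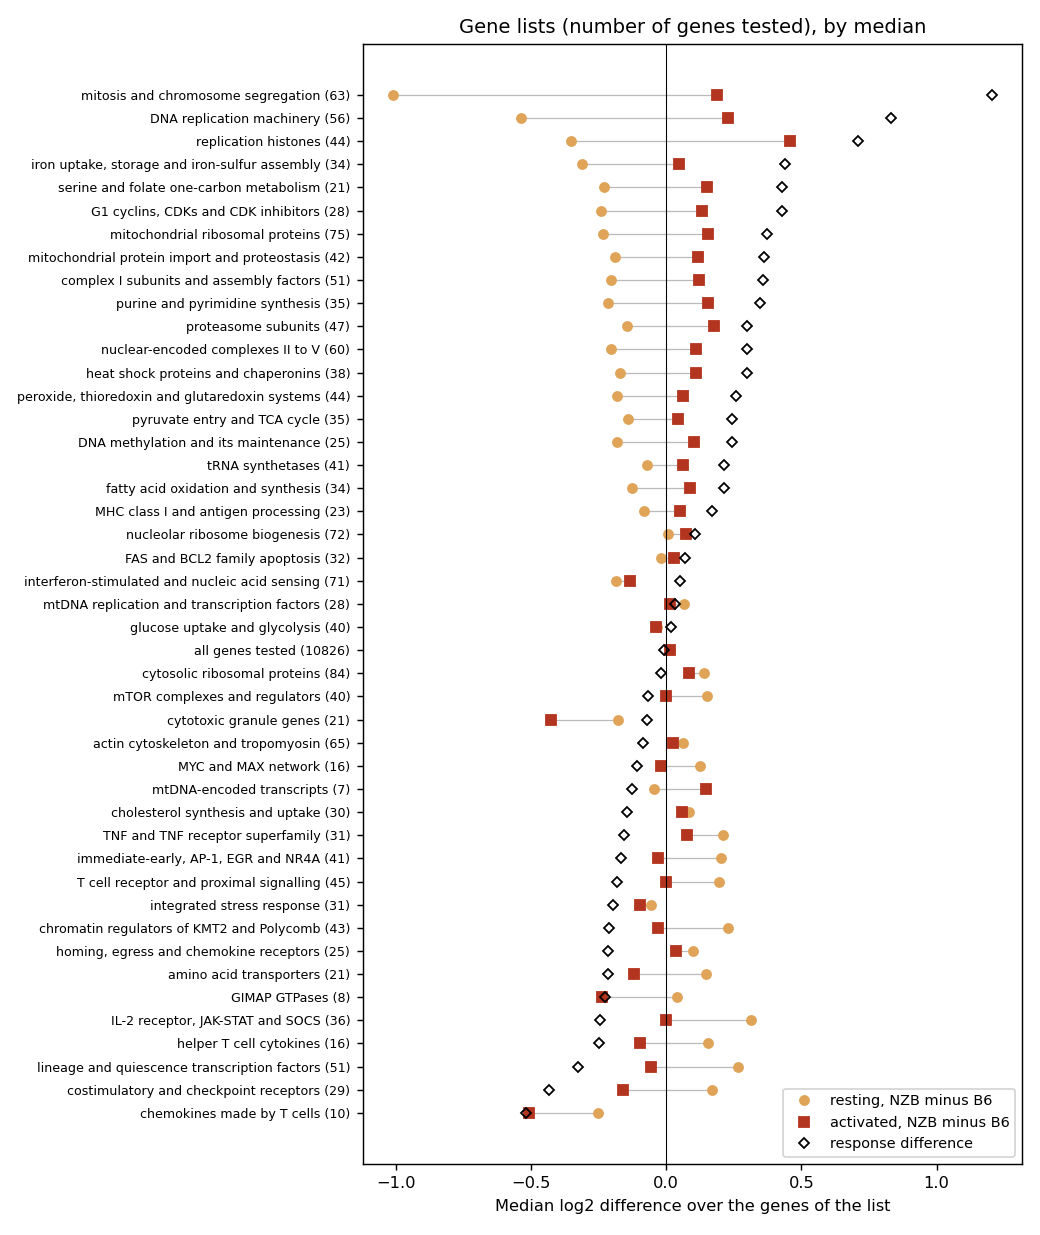
Median log2 difference over the genes of each function list (number of genes tested in brackets), ordered by the response difference (open diamonds), with the resting (orange circles) and activated (red squares) differences between mtDNA-NZB and mtDNA-B6. Mitosis and replication lists stand at 1.21 and 0.83 with resting medians of -1.01 and -0.54, and most other lists lie within 0.5 of 0.

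Other lists held no called gene. Mitochondrial import (median 0.36), one-carbon metabolism (0.43), heat shock proteins (0.30), the pyruvate and TCA cycle genes (0.24), tRNA synthetases (0.21), fatty acid genes (0.21) and class I antigen processing (0.17) had positive medians under all alternatives, and the IL-2 receptor and JAK-STAT genes (-0.25) and the immediate-early genes (-0.17) negative ones. Their members with the smallest p, such as *Mdh2* (0.53, adjusted p 0.0591), *Jak2* (-0.80, adjusted p 0.0557) and *Egr3* (-1.21, adjusted p 0.0537), lay just outside the threshold. *Asns*, the asparagine synthetase of the integrated stress response (2.02, adjusted p 0.0537), and *Cd83*, a costimulatory molecule (-1.96, adjusted p 0.0537), had large differences that did not pass. Cytosolic ribosomal proteins had 0 calls among 84 by edgeR with a median of -0.02, and 1 unadjusted p under 0.05. Helper T cell cytokines (16 tested) and chemokines (10 tested) had no call and medians of -0.25 and -0.52, whose signs turned under an alternative.

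The number of called genes rested on single libraries. With 1 library left out it was 0 in 11 of 21 fits and at least 100 in 7, up to 380 without activated mtDNA-NZB replicate 4. The libraries whose loss gave 0 were, in mtDNA-B6, activated replicates 1, 2 and 6 and resting replicates 1, 4 and 5, and in mtDNA-NZB, resting replicates 1, 4 and 5 and activated replicates 2 and 5. The number called was also 0 over all 24 libraries and with the library set as a term. With a block on the label number 8 genes were called, of which 2 were among the 113. Since the 113 genes were chosen by this test on the same libraries, their unadjusted p under such changes is no separate support.

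**Figure D5:**
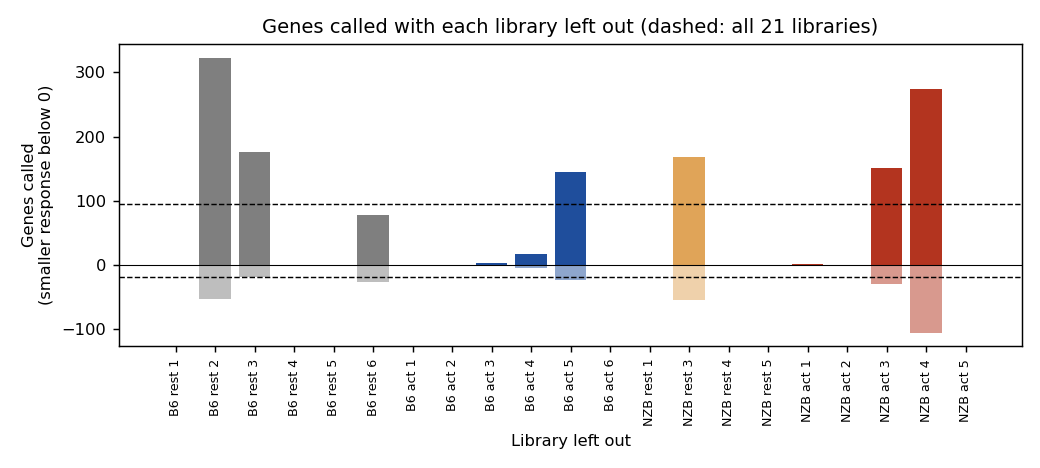
Number of genes with a called response difference when the library named on the x axis is left out; bars above 0 count genes with the larger response in mtDNA-NZB and bars below 0 those with the smaller, coloured by group, and dashed lines mark 95 and 18 over all 21 libraries. The count ranges from 0 to 380.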

How the data were processed

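RNA of resting and activated Tconv CD4+ cells was measured by bulk MARS-seq. According to the study's methods and the labels, the authors trimmed reads with cutadapt, mapped them with STAR to 3′ UTR regions of GRCm39, counted them per gene with HTSeq, removed UMI duplicates and corrected for saturation (versions are not given in the sources used here). The authors deposited these UMI counts, unscaled, and a second table of larger counts, used as an alternative. The 3′ counts of genes that overlap in their last 1000 bases can be mixed, and the strand of counting is not stated. Of 87 named genes, 29 overlap another gene there. 1 column of the second table matched no sample and was not used. Of 55414 genes, 25030 had a count, and 0.0272% of counts lay outside the annotation used for symbols.

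Groups came from the labels. Counts were scaled by TMM, filtered with filterByExpr and fitted over 4 groups by edgeR 4.0.16 (R 4.3.3, limma 3.58.1) with its quasi-likelihood test. DESeq2 1.42.0 with the study's settings was an alternative. The standard error is the log2 difference divided by the square root of F. The fits were tested on simulated data. Alternatives changed the tool, scaling, filter, count table, libraries or pairing. No library was a copy of another of its group (the chi-square of their counts was at least 2.77 times its degrees of freedom). Whether libraries of a group came from separate mice is not stated, so p-values measure the spread between these libraries.

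The named genes are the 10 largest differences in each direction among called genes with a group mean of at least 10 CPM (predicted genes skipped), each called gene of a function or marker list, *Fasl*, *Uhrf1* and *Hemgn*, and each list's gene with the smallest p. The values of a few of these genes are not reported here. The libraries, lists and genes were chosen with earlier results of these data known. The label number of resting and activated libraries was tried as a pairing. Over 8 pairs the correlation of deviations from the group means ran from -0.12 to 0.24 and exceeded 0.1 in 3, so the numbers were not taken to pair the libraries.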

Additional observations from a re-analysis of the deposited data

Results flagged for a closer look

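In 65 named genes the response to activation differed between haplotypes by the test of the difference itself (edgeR, adjusted p at most 0.05). The log2 response differences (mtDNA-NZB minus mtDNA-B6) were, in order, *Hemgn* 3.23, *C1qtnf12* 2.40, *Dnph1* 2.28, *Gata1* 2.20, *E2f8* 2.16, *Cox6b2* 2.11, *H2ac23* 2.08, *Rad54l* 2.02, *Aunip* 1.96, *Slc43a3* 1.95, *Cenph* 1.87, *Rrm2* 1.79, *Plk1* 1.74, *Cdc6* 1.72, *Mcm10* 1.71, *Espl1* 1.69 and *Cdc25c* 1.67. Positive differences followed for *Cdk1* 1.63, *Ccnb2* 1.62, *Spc24* 1.60, *Uhrf1* 1.55, *Cdc20* 1.48, *Cdca3* 1.46, *Bub1b* 1.38, *Cpox* 1.38, *Ube2c* 1.37, *Cenpp* 1.34, *Rrm1* 1.31, *Cenpm* 1.29, *Lig1* 1.24, *Rpa3* 1.23, *Dut* 1.18, *Psmg3* 1.05 and *Mrpl51* 1.04. Positive differences followed for *Prdx2* 0.92, *Ndufb8* 0.90, *Chaf1b* 0.88, *Dtymk* 0.86, *Cdk4* 0.85, *Gpx1* 0.84, *Atic* 0.83, *Urod* 0.79, *Glrx5* 0.77, *Tkt* 0.77, *Psmd13* 0.75, *Mrpl57* 0.74, *Ndufab1* 0.72, *Ppox* 0.66, *Bola3* 0.66 and *Ndufs6* 0.62. Negative differences were *Fasl* -1.82, *Klf7* -1.33, *Neat1* -1.28, *Slc7a6* -1.18, *Plekha2* -1.13, *Kmt2c* -1.11, *Nck1* -1.03, *Gpr18* -1.01, *S1pr1* -0.96, *Bach2* -0.96, *Tpm4* -0.96, *Per1* -0.96, *Gimap6* -0.93, *Sesn3* -0.89 and *Ptprc* -0.55. All of these kept their sign in each of the 34 alternatives run in which they were tested. Their choice by this test on the same libraries largely fixes this, so it is no separate support. Of the alternatives, the log2 cut-off reuses the main fit and the second DESeq2 setting reuses the first DESeq2 fit.

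In 18 of 316 sets of 4 to 6 libraries examined (library totals, marker sums and the levels of the called named genes) 1 library stood apart from its group by Dixon's criterion, where chance gives about 1 in 20. Activated mtDNA-B6 replicate 1 stood high in erythroid markers (563 CPM), NK cell markers (1620 CPM), mast cell and basophil markers (434 CPM) and *Fasl* (12.4 CPM). Activated mtDNA-B6 replicate 5 stood high in *H2ac23* (102 CPM) and *Glrx5* (135 CPM). Resting mtDNA-B6 replicate 5 was low in T cell identity markers (9090 CPM) and high in platelet markers (62.6 CPM), and resting mtDNA-B6 replicate 2 was high in NK cell markers (668 CPM). Resting mtDNA-NZB replicate 3 stood high in *Rrm2* (27.7 CPM), *Rrm1* (61.7 CPM) and mast cell markers (56.7 CPM), replicate 5 in *Tpm4* (138 CPM) and *Bach2* (114 CPM), and replicate 1 in *Plekha2* (66.6 CPM). Activated mtDNA-NZB replicate 1, the smallest library, was low in *Rpa3* (39.9 CPM), replicate 4 in *Psmd13* (160 CPM) and replicate 3 in *Tpm4* (98.9 CPM).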

How the results depend on the processing

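The number of genes with a called response difference moved widely. It was 113 by edgeR and became 266 by DESeq2, 261 by DESeq2 with a largest count of at least 30, 265 without a filter on low counts, 210 with a stricter filter, 73 with a log2 difference of at least 1 and 23 in the second count table. It was 0 over all 24 libraries (1512 at an unadjusted p under 0.05), with library set as a term (1783) and in set 2 alone (369), and 0 to 380 with a library left out (1707 to 2304). Genes called at rest (662) became 323 with a log2 difference of at least 1, 417 in the second table, 292 over 24 libraries, 348 with the set term and 1 in set 2 alone, and 129 to 789 with a library left out, the lowest without resting mtDNA-NZB replicate 5. Genes called after activation (0) became 7 by either DESeq2 fit and 4 without a filter, and 0 to 12 with a library left out. Genes called for the average (5) became 97 and 95 by DESeq2, 10 with median-of-ratios scaling, 158 without a filter, 10 with the stricter filter, 2 with a log2 difference of at least 1, 25 in the second table, 0 over 24 libraries and 0 in set 2 alone, and 2 to 102 with a library left out.

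Several values were recomputed under alternatives chosen after seeing the data: the genes called after activation, the responses within a haplotype, and the sign and share of the 113. The genes that responded in mtDNA-B6 cells became 1989 with a log2 difference of at least 1, 3589 with the set term and 2807 in set 2 alone (4997 to 6140 with a library left out), and those in mtDNA-NZB cells 2722 and 2531 in the first and last of these (5249 to 5773). An unadjusted p under 0.05 with the same sign was seen for 113 of the 113 genes with any library left out, which their choice by this test largely fixes, and for 19 in set 2 alone, where activated mtDNA-B6 and resting mtDNA-NZB have 1 library each. The share of called genes carried by the resting level (66.4%) was 78.1% with a log2 difference of at least 1 and 37.9% to 100% in the 10 fits without a library that called any gene, lowest without activated mtDNA-NZB replicate 4. It has no value where no gene was called. Over the 113 genes themselves it was 61.1% to 72.6% with a library left out and 82.3% in set 2 alone. Among named genes *mt-Nd1* alone turned its sign, to -1.97 over all 24 libraries. DESeq2 moved the median of all genes from -0.01 to 0.10. The causes were not tested.

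A block on the label number gave 8 called genes, of which 2 were among the 113, and 6 in the paired libraries alone, of which 0 were. The title number as a block gave 5, of which 1 was. The haplotype differences, their average and the share carried by the resting level could not be fitted with these blocks, which lie within a haplotype.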
